A study of Homo sapiens with 4 samples.

Results

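The LGI ligands (LGI1, LGI2, LGI3 and LGI4) and the ADAM22-family receptors (ADAM11, ADAM22 and ADAM23) were examined in RNA-Seq of HGC-27 cells, a human gastric carcinoma cell line. The 7 genes were taken by symbol from the 63568 gene identifiers of the count tables. The family was chosen because LGI4 had one of the strongest falls in the same comparison, so the differences below describe the members and carry no test. There were 2 libraries with Control shRNA (a scrambled hairpin) and 2 with USP47 shRNA, which targets the deubiquitinase USP47. All 4 came from cells infected with lentivirus, and the labels give no other treatment. The labels do not state which hairpin sequence each USP47 shRNA library carried, nor whether the 2 libraries of a group were separate cultures, so the p-values given for other genes measure the spread between these libraries, which may be technical.

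LGI proteins are secreted glycoproteins built from leucine-rich repeats and EPTP (epitempin) repeats, and they bind the extracellular part of ADAM22, ADAM23 and ADAM11. These 3 receptors belong to the ADAM family of membrane metalloproteases but lack the residues of an active protease site, so they act in adhesion and signaling. In the brain, LGI1 bridges ADAM22 and ADAM23 across the synapse, and ADAM22 is tied through PDZ scaffolds to AMPA receptors and Kv1 potassium channels. In peripheral nerve, LGI4 secreted by Schwann cells acts through axonal ADAM22 in myelination.

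Depth lay between 15649899 and 20140273 counts per library. USP47, the targeted gene, had 1357 and 1297 counts in the control libraries against 749 and 309 in the USP47 shRNA libraries. Its level in CPM, the count relative to the library's total after TMM scaling, fell from 73.1 ± 9.83 to 28.8 ± 10.2 (SD, n = 2 each), a log2 fold change of -1.34 (SE 0.21, adjusted p = 0.00362 by edgeR's quasi-likelihood test). The first and second USP47 shRNA library kept 49.3% and 29.5% of the control mean. Of 21932 genes that passed the filter on low counts, 16.1% were called at an adjusted p under 0.05, with 9.56% lower and 6.52% higher. Both USP47 shRNA libraries lay below both control libraries for 31.7% of the tested genes. In these bulk libraries, fewer cells of a type and less RNA per cell cannot be told apart. Markers of gastric and other epithelial cells were sparse, and the summed CPM of the 9 markers lay between 4.67 and 6.07. KRT18 and KRT19, keratins of simple epithelia, had 0 or 1 count in every library. CLDN18 made up most of the sum, with 66 and 56 counts in control and 61 and 43 with USP47 shRNA. The mesenchymal markers summed to 1583 and 1656 CPM in the control libraries and to 922 and 1349 CPM in the USP47 shRNA libraries. COL1A1 was the largest part, at 898 and 963 CPM in control and 434 and 677 CPM with USP47 shRNA. Their part in the results was not tested.

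LGI4 was the most abundant ligand and had the lowest fold change among the 5 of the 7 genes that passed the filter. It had 310 and 357 counts in the control libraries against 57 and 49 in the USP47 shRNA libraries. In CPM the values were 18.3 and 18.2 against 2.74 and 3.41. The groups did not overlap, and the USP47 shRNA libraries kept 15.0% and 18.7% of the control mean. The mean went from 18.2 ± 0.0565 to 3.08 ± 0.476 CPM (SD, n = 2 each), a log2 fold change of -2.58 (SE 0.18), or 5.98-fold lower. From the lowest fold change upward, LGI4 stood at place 38 of 21932 tested genes. It stood at place 1 among the 10358 genes at least as abundant as LGI4, a cut set by LGI4 itself. Since its fall chose the family, these places are descriptions and no test. USP47 was lower in the second USP47 shRNA library than in the first. For LGI4 the order of these 2 libraries depended on the scale. It was at 2.74 and 3.41 in CPM but at 0.878 and 0.818 in TPM, which also scale by gene length. The length of LGI4 is the same in both libraries, so the order turns on the library totals of these scales.

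The LGI4 gene (ENSG00000153902) lies on the minus strand of chr19:35615417-35633355 in GRCh37. The start site that RefSeq gives for it, at 35625963, lies inside the longer gene of the GENCODE annotation. The sequences upstream of the RefSeq start are shown for LGI4, for ADAM23, whose level was also lower, and for ADAM22, whose groups overlapped. Those of the other members, LGI3 and ADAM11 among them, are not shown, so the members are not fully contrasted. The sequences shown come from the RefSeq promoter table (build GRCh38.p14), each matched at a single place in GRCh37. They stop at the first base of an annotated exon or at the start site. The LGI4 stretch is chr19:35626105-35626213 (minus strand), that of ADAM23 is chr2:207308006-207308255 (plus strand) and that of ADAM22 is chr7:87563316-87563457 (plus strand). Each is written 5′ to 3′, and capitals mark GGGCGG or its reverse complement, the core of a GC box.
LGI4: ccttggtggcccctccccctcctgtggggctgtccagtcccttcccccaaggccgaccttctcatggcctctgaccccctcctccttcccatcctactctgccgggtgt
ADAM23: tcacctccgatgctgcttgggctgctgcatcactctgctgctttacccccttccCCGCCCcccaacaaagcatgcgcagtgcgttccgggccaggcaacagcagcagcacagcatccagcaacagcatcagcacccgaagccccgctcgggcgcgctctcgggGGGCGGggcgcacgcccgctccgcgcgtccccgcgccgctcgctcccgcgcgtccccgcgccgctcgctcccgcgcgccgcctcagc
ADAM22: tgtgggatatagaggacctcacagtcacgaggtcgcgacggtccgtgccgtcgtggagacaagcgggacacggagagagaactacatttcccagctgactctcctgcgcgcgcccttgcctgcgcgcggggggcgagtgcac
Over the 250 bases before the start site, of which the stretches of LGI4 and ADAM22 are the part outside exons, LGI4 had 5 CpG dinucleotides, ADAM22 had 25 and ADAM23 had 33, against a median of 11 over 35116 promoters of that length. GC content was 64.4% for LGI4, 65.6% for ADAM22 and 73.6% for ADAM23, against a median of 58.0%. On both strands, GGGCGG was found at -196 and -87 in ADAM23 (first base counted from the start site) and at -76 and -14 in ADAM22, the latter pair inside the exon and so not in the printed stretch, while it was not found in the LGI4 window. It was present in 42.6% of all promoters. The E-box CAGGTG, held by 17.5% of promoters, TATAAA (10.7%) and the GLI motif GACCACCCA (0.199%) were found in none of these 3 windows. No motif searched contains another, and a match or its absence describes only the window.

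LGI3, a ligand tied to Kv1 channels of axons, was less abundant than LGI4 per length, with a control mean of 0.594 TPM against 5.52 TPM (TPM scale a count by gene length and by the library's total). It had 35 and 36 counts in the control libraries against 16 and 14 in the USP47 shRNA libraries, or 2.06 and 1.84 against 0.769 and 0.975 CPM. The groups did not overlap. The mean CPM was 1.95 ± 0.162 in control and 0.872 ± 0.146 with USP47 shRNA (SD, n = 2 each), a log2 fold change of -1.18 (SE 0.30). The gene lies on chromosome 8 and shares 89 exon bases with SFTPC on the opposite strand. SFTPC, a surfactant protein gene, had 1 and 2 counts in control and 2 and 5 with USP47 shRNA.

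LGI2 and LGI1 did not pass the filter. LGI2, a ligand known from canine juvenile epilepsy, had 6 and 8 counts in control against 1 and 3 with USP47 shRNA. Pooled over each group this was 14 against 4 counts, a rate ratio of 0.286 (exact 95% interval 0.0686 to 0.911, counting error only). LGI1, the ligand mutated in a familial temporal lobe epilepsy, had 0 and 2 counts in control and 1 and 0 with USP47 shRNA. Every LGI1 value was below the level of 3 counts, which lay between 0.149 and 0.192 CPM per library, so no difference was detectable at this depth.

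The receptors did not share one pattern. ADAM23, which also binds integrin αvβ3, had 513 and 562 counts in control against 265 and 201 with USP47 shRNA. In CPM it was 30.2 and 28.6 against 12.7 and 14. Both USP47 shRNA libraries lay below both control libraries, at 43.3% and 47.6% of the control mean. The mean went from 29.4 ± 1.13 to 13.4 ± 0.893 CPM (SD, n = 2 each), a log2 fold change of -1.14 (SE 0.14), or 2.21-fold lower. ADAM23 (ENSG00000114948) occupies chr2:207308256-207485851 on the plus strand. A long noncoding RNA on the opposite strand inside it, ENSG00000228577, shares 0 exon bases with it and had 14 and 13 counts in control against 7 and 7.

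ADAM11, known from the terminals of cerebellar basket cells, had 330 and 435 counts in control against 267 and 218 with USP47 shRNA. In CPM it was 19.5 and 22.2 against 12.8 and 15.2. The groups did not overlap, but the gap between the nearest libraries was small beside that of LGI4 or ADAM23. The mean went from 20.8 ± 1.92 to 14.01 ± 1.66 CPM (SD, n = 2 each), a log2 fold change of -0.58 (SE 0.15). ADAM11 (ENSG00000073670) lies at chr17:42836356-42859214 on the plus strand, and no annotated gene overlaps it.

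ADAM22, the receptor shared by LGI1 and LGI4, had 1014 and 978 counts in control against 1129 and 722 with USP47 shRNA. In CPM it was 59.8 and 49.9 against 54.3 and 50.3. The groups overlapped, with both USP47 shRNA libraries between the control libraries. The mean was 54.8 ± 7.02 in control and 52.3 ± 2.82 CPM with USP47 shRNA (SD, n = 2 each), and the log2 fold change of -0.07 (SE 0.14) had an interval from -0.37 to 0.24. ADAM22 (ENSG00000008277) lies at chr7:87563458-87832204 on the plus strand.

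Of the 7 genes, 5 passed the filter, which a gene can pass through its level in 1 group, and 4 of these were past the threshold in the lower direction (9.56% of all tested genes) and 0 in the higher direction (6.52%). All 4 libraries of LGI4, LGI3, LGI2, ADAM23 and ADAM11 were ordered with both USP47 shRNA libraries below both control libraries (31.7% of tested genes), although LGI2 itself was not tested. Since LGI4 in this comparison chose the family, nothing is read from these counts. Against the median log2 fold change over all tested genes of -0.0083, the 5 tested members lay at -2.58 (LGI4), -1.18 (LGI3), -1.14 (ADAM23), -0.58 (ADAM11) and -0.07 (ADAM22).

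**Figure D1:**
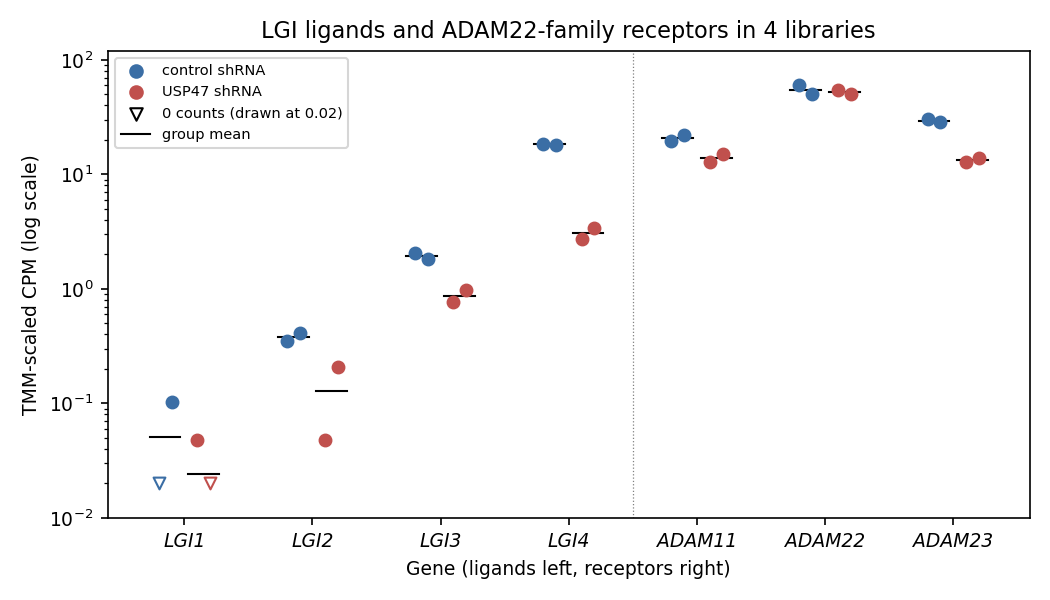
TMM-scaled CPM of each of the 7 genes in the 2 control shRNA and 2 USP47 shRNA libraries, on a log scale, with group means as bars and libraries at 0 counts as open triangles. LGI4 stood at 18.3 and 18.2 CPM in control and at 2.74 and 3.41 with USP47 shRNA, while the ADAM22 points of both groups overlapped between 49.9 and 59.8 CPM.

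Levels of different genes were compared in the deposited TPM. In control libraries the order of mean TPM was ADAM23 (6.29), ADAM22 (6.18), ADAM11 (5.95), LGI4 (5.52), LGI3 (0.594), LGI2 (0.0808) and LGI1 (0.0229). ADAM23 and ADAM22, and ADAM22 and ADAM11, overlapped between libraries, so the order of the 3 receptors was within their spread. LGI4, at 5.88 and 5.16 TPM, was close below ADAM11, at 5.94 and 5.96. With USP47 shRNA the order was ADAM22 (5.46), ADAM11 (3.68), ADAM23 (2.62), LGI4 (0.848), LGI3 (0.241), LGI2 (0.0231) and LGI1 (0.0122), and among neighbours LGI2 and LGI1 alone overlapped. The same order in both groups was obtained with TMM-scaled CPM per kilobase. For scale, 53.3% of the tested genes had a lower control mean TPM than LGI4 and 8.24% a lower one than LGI3.

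The makeup of the family in each library is described from the same values. The summed TPM of the 4 ligands was 6.63 and 5.80 in control against 1.16 and 1.09 with USP47 shRNA. LGI4 made up 88.7% and 88.8% of that sum in control and 75.7% and 75.2% with USP47 shRNA, and LGI3 10.0% and 8.98% against 21.3% and 21.5%. LGI4 remained the leading ligand in all 4 libraries. Among the receptors, summing to 19.9 and 16.9 TPM against 13.2 and 10.3 TPM, ADAM22 made up 35.8% and 30.9% in control and 48.7% and 43.4% with USP47 shRNA. ADAM23 made up 34.4% and 33.8% against 21.8% and 23.0%, and ADAM11 29.8% and 35.2% against 29.5% and 33.6%. The shares of ADAM22 and ADAM23 did not overlap between groups, and those of ADAM11 did. These shares are parts of one sum, so a higher ADAM22 share follows from lower values of the other receptors. The level of ADAM22 itself overlapped between groups in CPM and in TPM. The ratio of summed receptor TPM to summed ligand TPM was 3.01 and 2.92 in control and 11.4 and 9.46 with USP47 shRNA. The ratio of ADAM22 to LGI4, receptor to ligand, was 1.21 and 1.02 against 7.34 and 5.46. Both ratios rest on LGI4, whose fall chose the family, so nothing further is read from them. A single 7SL RNA gene, RN7SL2, took 20.8% to 24.1% of the TPM of each library, which lowers the TPM of other genes. Further differences between TPM and CPM remained. In the USP47 shRNA libraries ADAM22 was at 54.3 and 50.3 CPM but at 6.44 and 4.47 TPM. Summed TPM are thus less comparable between libraries, while ratios within a library were not affected.

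**Figure D2:**
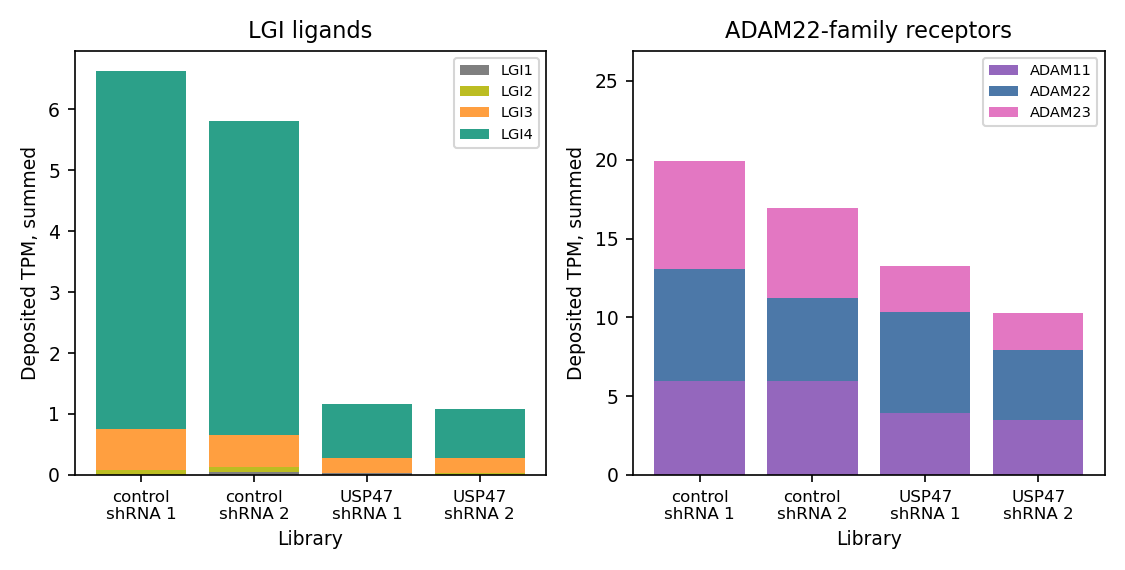
Deposited TPM of the 4 ligands (left) and the 3 receptors (right), stacked per library on linear axes that start at 0. The ligand stacks were 6.63 and 5.80 TPM in control and 1.16 and 1.09 with USP47 shRNA, with LGI4 the largest segment in each, and the ADAM22 segment differed least between group means among the receptors.

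The genes around each member were counted within 100 kb of its ends, a comparison added after values near LGI4 had been seen. Around LGI4, 6 of the tested neighbours are reported, of which 3 fell (9.56% of all tested genes did) and 0 rose, with a median log2 fold change of -0.80. FXYD1 (phospholemman, a regulator of the sodium pump) fell from 5.48 and 4.69 to 1.20 and 1.46 CPM, a log2 fold change of -1.94 (SE 0.24, adjusted p = 0.00116). FXYD7, of the same family, fell from 34 and 38 to 13 and 8 counts (-1.71, SE 0.32, adjusted p = 0.00701). Both are transcribed from the opposite strand and start 3.76 and 8.19 kb upstream of the RefSeq start of LGI4. Farther away, GRAMD1A, a cholesterol transfer protein, fell by 0.78 on the log2 scale (adjusted p = 0.0117). FXYD5 was at -0.43 (SE 0.19, adjusted p = 0.148) and FXYD3 had 4 and 15 counts against 3 and 3. Around the other members, the tested neighbours that fell or rose were 1 and 0 of 9 at ADAM11 (GJC1), 1 and 1 of 6 at ADAM22 (SRI and STEAP4), 0 and 2 of 9 at LGI3 (FGF17 and BMP1), and 0 of 3, 0 of 2 and 0 of 2 at LGI1, LGI2 and ADAM23. Of these, the calls of GJC1, SRI, STEAP4 and BMP1 were each lost without 1 library or more, with highest adjusted p of 0.145, 0.0829, 0.161 and 0.220, control shRNA replicate 2 being among those libraries for each. BMP1, at 0.57 on the log2 scale, was at 0.36 without USP47 shRNA replicate 2. The STEAP4 call was also lost with library size alone and without a filter (highest adjusted p 0.0888).

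FXYD1 overlaps the LGI4 gene on the opposite strand with 0 exon bases shared, and a second overlapping RNA, ENSG00000221857, had 0 counts. Further overlapping RNAs, ENSG00000279619 at LGI4 and ENSG00000280660 and ENSG00000280485 at LGI1, were not analysed here. The strand setting of the counting is not given in the sources used here. The counts of LGI4 in every library exceeded those of FXYD1 (93 and 92 against 25 and 21), and any reads of one gene counted for the other were not measured.

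**Figure D3:**
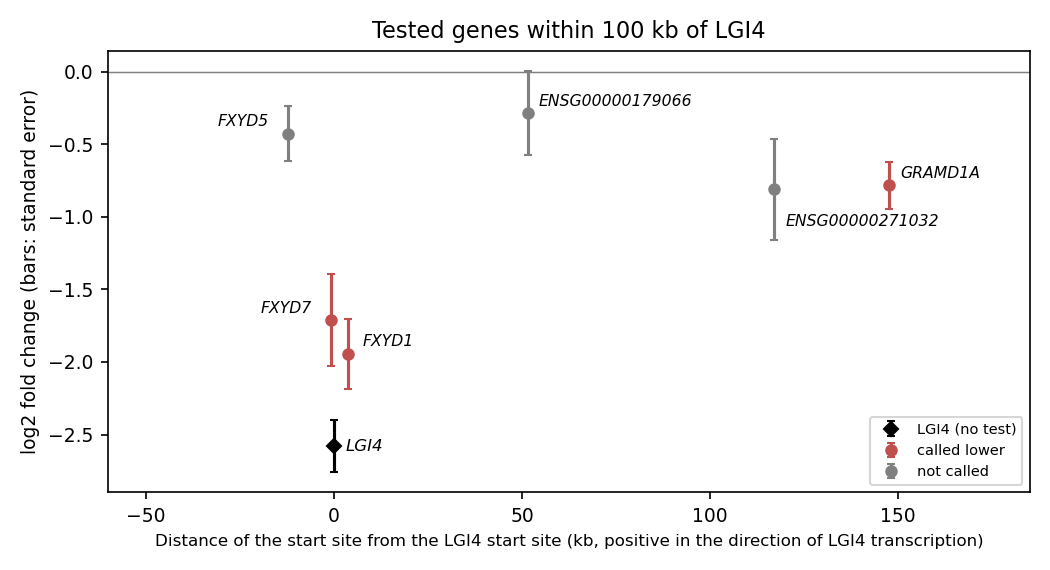
Log2 fold change of LGI4 and of the 6 reported genes within 100 kb, against the distance of their start sites from the GENCODE start site of LGI4 in kb, with standard errors as bars. FXYD1 (-1.94) and FXYD7 (-1.71), whose start sites are the nearest, lay closest to LGI4 (-2.58), and GRAMD1A (-0.78) and FXYD5 (-0.43) lay nearer to 0.

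The genes most like LGI4 over the 4 libraries, by Euclidean distance between centred log2(CPM + 0.5) values, were PI15 (distance 0.157), LAMA1 (0.251), KCNJ5-AS1 (0.291), APELA (0.312) and ENSG00000203403 (0.334). PI15, a secreted protease inhibitor, had 1455 and 1538 counts in control against 317 and 261 with USP47 shRNA. LAMA1, a laminin α chain of basement membranes, had 287 and 293 against 57 and 51. APELA, a peptide ligand of the apelin receptor, had 176 and 164 against 24 and 28. Their log2 fold changes lay between -2.97 and -2.30. With a pseudocount of 2 in place of 0.5, 2 of the 5 remained among the nearest 5, so the list depends on how low values are weighted.

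The genes that work with the family were counted in 9 lists of 74 genes, chosen with earlier results of these data known. In all, 43 passed the filter, of which 11 fell and 2 rose, beside 9.56% and 6.52% of all tested genes, with a median log2 fold change of -0.18 beside -0.0083 over all tested genes. The same 2 shares and median stand beside the counts of each list that follows, and nothing particular to a list is read from them. The scaffolds and channels next to ADAM22 come first. Of the 8 PDZ scaffolds, which hold the intracellular tail of ADAM22, 8 were tested, 2 fell and 0 rose (median 0.01). DLG3 (SAP102) fell from 78 and 69 to 16 and 10 counts, a log2 fold change of -2.44 (SE 0.29, adjusted p = 0.00094). LIN7A, of the LIN7 scaffolds, fell from 203 and 233 to 136 and 85 counts (-0.93, SE 0.16, adjusted p = 0.00539). DLG4, which encodes the PSD-95 scaffold that anchors ADAM22 at synapses, was at 0.21 (SE 0.13, adjusted p = 0.276), and DLG1, the most read of the DLG genes, at 0.12 (adjusted p = 0.579). Thus DLG3 and LIN7A passed the test while DLG4 and DLG1 did not, and a difference between them was not tested.

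Of the 13 genes of the Kv1 channel complex, 4 were tested and 0 were called (median 0.02). KCNAB2, a cytoplasmic β subunit, was at 0.41 (SE 0.14, adjusted p = 0.0716). The pore subunits that ADAM22 accompanies were near absent, since KCNA1 had 0 counts and KCNA2 between 1 and 10 counts per library. Of the 12 genes of the AMPA receptor complex, 5 were tested, of which 3 fell (9.56% of all tested genes did) and 0 rose (median -0.60). CACNG8, an auxiliary (TARP) subunit, fell from 188 and 160 to 87 and 57 counts (-1.23, SE 0.20, adjusted p = 0.00427). GRIA4, a pore subunit, fell from 293 and 310 to 178 and 114 counts (-0.998, SE 0.15, adjusted p = 0.00324). GRIA3, another pore subunit, fell from 256 and 281 to 170 and 163 counts (-0.60, SE 0.18, adjusted p = 0.0463). The GRIA3 call was lost with the DESeq2 Wald test (adjusted p = 0.110), with DESeq2 size factors and without control shRNA replicate 1 (adjusted p = 0.255), control shRNA replicate 2 or USP47 shRNA replicate 1, the last giving -0.37 on the log2 scale. CACNG2, the stargazin subunit, and CACNG3 had 0 counts in every library.

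The 14-3-3 proteins, which bind the tail of ADAM22, were the most abundant of the listed partners by summed TPM. Of 7, 7 were tested, 2 fell and 0 rose (median -0.18). YWHAE (14-3-3 epsilon) fell from 5991 and 7154 to 4554 and 3591 counts (-0.61, SE 0.14, adjusted p = 0.0155). SFN (14-3-3 sigma) fell from 34 and 35 to 12 and 13 counts (-1.39, SE 0.33, adjusted p = 0.0194). The YWHAE call was lost without either control library (highest adjusted p 0.198), and that of SFN without control shRNA replicate 1 (adjusted p = 0.0657). Of the other 3 binding partners 2 were tested and 0 called. ITGAV, the integrin αv chain that pairs with the β3 chain to bind ADAM23, was at -0.25 (SE 0.12, adjusted p = 0.198). ITGB3, that β3 chain, had 15 and 9 counts against 1 and 2 and was not tested. RTN4R, the Nogo receptor, was at 0.09 (SE 0.21, adjusted p = 0.796).

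Other proteins share parts of the ligands or receptors. The 2 other EPTP-repeat proteins were both tested and 0 were called. ADGRV1, a very large adhesion receptor, was at -0.35 (SE 0.18, adjusted p = 0.202) and TSPEAR at -0.01 (adjusted p = 0.980). Of 12 catalytic ADAMs, 8 were tested, 1 fell and 1 rose (median -0.17). ADAM19, a protease that can shed neuregulin, fell from 49 and 61 to 7 and 7 counts (-2.89, SE 0.33, adjusted p = 0.000771). ADAM21, known from testis, rose from 21 and 28 to 63 and 37 counts (1.08, SE 0.26, adjusted p = 0.0207). ADAM21 is related to ADAM20, and any reads of one gene counted for the other were not measured. The ADAM21 call was lost with the DESeq2 Wald test (adjusted p = 0.125), with library size alone and without either control library. ADAM10 and ADAM17, the broad sheddases, were at -0.19 (adjusted p = 0.454) and 0.29 (adjusted p = 0.167). Of 5 other ADAMs that lack the active site, ADAM32 alone was tested, and it rose from 25 and 42 to 101 and 65 counts (1.36, SE 0.24, adjusted p = 0.00562).

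In the list of the Schwann lineage, in which LGI4 acts, 6 of 12 genes were tested, of which 3 fell (9.56% of all tested genes did) and 0 rose (median -0.63). ADGRG6 (GPR126), a receptor that starts myelination, fell from 309 and 310 to 147 and 120 counts (-1.15, SE 0.17, adjusted p = 0.00238). ERBB3, the neuregulin receptor, fell from 180 and 273 to 83 and 100 counts (-1.20, SE 0.25, adjusted p = 0.0116). POU3F2, a transcription factor of promyelinating cells, fell from 175 and 220 to 120 and 89 counts (-0.85, SE 0.17, adjusted p = 0.00880), a call lost without control shRNA replicate 2 (adjusted p = 0.0766). PMP22, a myelin protein and the most abundant gene of the list by TPM, was at -0.40 (SE 0.14, adjusted p = 0.0715). MBP, myelin basic protein, was at 0.68 (SE 0.23, adjusted p = 0.0725), with 40 and 48 against 70 and 64 counts and no overlap between groups. SOX10, the lineage's defining transcription factor, had 48 and 43 against 50 and 26 counts (-0.22, SE 0.26, adjusted p = 0.599). S100B and CDH19, other genes of the lineage, had 0 or 1 count in every library. The summed CPM of the list was 77.7 and 83.5 in control and 48.8 and 56.4 with USP47 shRNA.

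**Figure D4:**
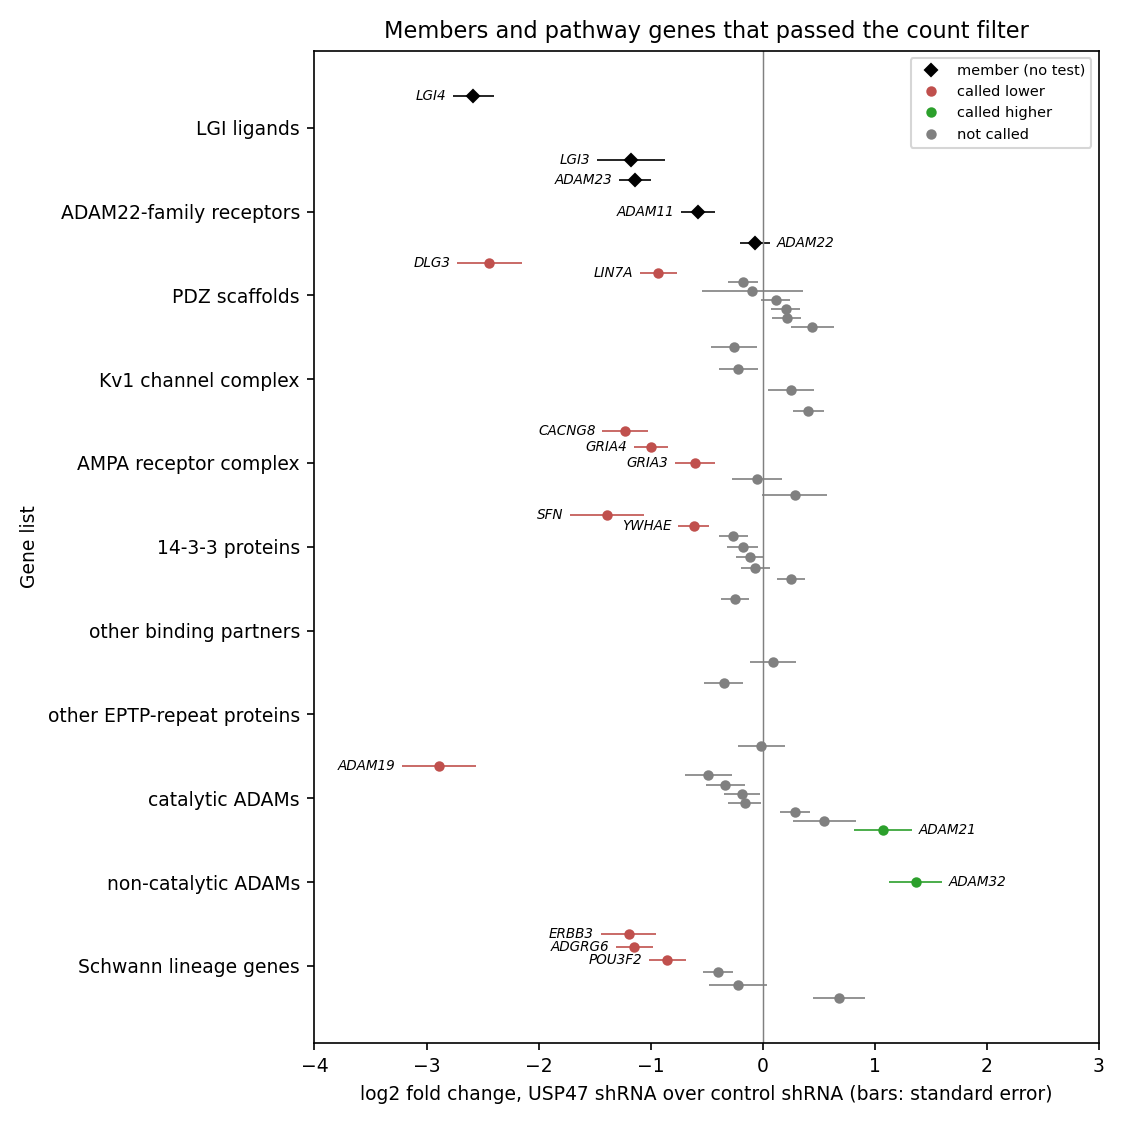
Log2 fold change (USP47 shRNA over control shRNA) with its standard error for the 5 members and 43 listed genes that passed the filter, grouped by list, with genes past an adjusted p of 0.05 named. The falls reached -2.89 (ADAM19) and -2.44 (DLG3), the rises were ADAM21 (1.08) and ADAM32 (1.36), and the Kv1, EPTP and other partner lists held no named gene.

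Neuronal markers were listed because the family is best known from neurons. Of 9 in the tables, 5 were tested, with SNAP25 lower (21 and 19 against 6 and 2 counts, adjusted p = 0.0120) and ELAVL3 higher (15 and 20 against 62 and 55 counts, adjusted p = 0.00325). STMN2 and ELAVL4, defining neuronal genes, had 0 counts in every library. The list summed to 39.3 and 34.6 CPM in control and 31.1 and 28.6 CPM with USP47 shRNA. SYT1, which was not called, made up most of that sum in each library. It was at 29.4 and 25.6 CPM in control and at 22.0 and 19.6 CPM with USP47 shRNA. Of 9 gastric and epithelial markers 4 were tested and EPCAM alone was called (12 and 11 against 3 and 3 counts, adjusted p = 0.0416). The EPCAM call was lost with library size alone, without a filter (highest adjusted p of the 2 was 0.0577) and without either control library or USP47 shRNA replicate 1 (highest adjusted p 0.173). Of 6 mesenchymal markers 5 were tested and 3 fell, namely the matrix genes FN1 (-1.34, adjusted p = 0.000602), COL1A1 (-0.75, adjusted p = 0.0309) and COL1A2 (-1.23, adjusted p = 0.0222). VIM (-0.14, adjusted p = 0.623) and SPARC (0.02, adjusted p = 0.940) were not called. CDH2 was not tested and had 3 and 3 counts in control against 10 and 3 with USP47 shRNA. The COL1A1 call was lost without either control library (highest adjusted p 0.125), and that of COL1A2 with the DESeq2 Wald test (adjusted p = 0.192). With USP47 shRNA replicate 1 left out, COL1A1 was at -0.46 and COL1A2 at -0.71 on the log2 scale, and without USP47 shRNA replicate 2 they were -1.10 and -1.99. The part of these markers in the differences of the family was not tested.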

How the data were processed

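RNA was measured in 4 HGC-27 libraries (2 control shRNA, 2 USP47 shRNA, grouped by the labels). The study's methods speak of RNA extracted in triplicate, while 2 libraries per group are labelled. The authors deposited counts of reads per gene without normalization, with FPKM and TPM values derived from those counts. Per the study's methods and the submitters' processing notes, bases under a quality of 20 were trimmed, reads were aligned to hg19 with STAR 2.7.5c, duplicates and low-quality reads were removed with SAMtools 1.9, and genes were counted with featureCounts and compared with DESeq2 1.26.0. The notes also name mm10. Where reads carry no molecular identifiers, taking out duplicates reduces abundant genes more than rare ones. The labels name a stranded library kit and the methods another kit.

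Counts were tested with edgeR 4.0.16 in R 4.3.3 (TMM, filterByExpr, robust quasi-likelihood fit, two-sided, Benjamini-Hochberg over 21932 genes). SE was obtained as log2 fold change over the root of the F statistic. TPM served for levels between genes, and FPKM for the gene length behind the counts. The interval of the LGI2 rate ratio and the level of 3 counts cover counting error only. The ADAM22 interval is the 95% interval of the edgeR fit, which includes the spread between libraries. Symbols were matched for 43631 of 63568 identifiers, and positions are those of GENCODE 44 lifted to GRCh37. Promoters came from the RefSeq table. ADAM11 was not matched there. The steps were tested on simulated counts.

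The members and lists were chosen with earlier results of these data known. The text names the members, USP47, listed genes past the threshold, up to 5 more per list by mean TPM, genes overlapping a member and the 5 genes most like LGI4. Listed and marker genes at or near 0, called marker genes and neighbours within 100 kb were named after their values were seen. So were SYT1 and CLDN18, each the most abundant gene of its marker list, and the mesenchymal markers VIM, SPARC and CDH2. Alternatives were the DESeq2 1.42.0 Wald test, DESeq2 size factors, library size alone, no filter, at least 10 counts in every library, the replicate number as a block and each library left out. The legacy quasi-likelihood method and a fit without 7SL RNA genes were added after seeing the data. NEFL was not analysed here, and 1 gene within 100 kb of LGI4 is not reported here.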

Additional observations from a re-analysis of the deposited data

How the results depend on the processing

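With 2 libraries per group the precision is limited, and in a fit that leaves out 1 library the lone library is assumed to vary like the other group. The count of genes called was 3527. It was 2288 with the DESeq2 Wald test, 7422 with the replicate block, and between 1284 (without control shRNA replicate 1) and 7455 (without USP47 shRNA replicate 1) with 1 library left out. It lay between 2800 and 3575 under the other 6 alternatives. Replicate numbers are shared between groups in the labels, but nothing in the labels ties the numbers to a shared batch. The deviations of replicate 1 from the group means correlated at 0.213 over genes between the groups. With 2 pairs a shared batch can be neither shown nor excluded, so the block was kept as an alternative and not as the main fit. Of the 74 listed genes, 13 were called, against 21 with the replicate block, 10 with the DESeq2 Wald test, and 9 to 22 with 1 library left out, the highest when USP47 shRNA replicate 1 was left out. LGI4 lay at a log2 fold change between -2.73 and -2.41 over 12 alternatives (-2.58 with the replicate block). LGI3 lay between -1.32 and -0.99, the latter without USP47 shRNA replicate 1, a shift above the spread between its libraries. ADAM23 lay between -1.21 and -1.07, ADAM11 between -0.69 and -0.46, and ADAM22 between -0.20 and 0.07, changing sign without control shRNA replicate 1. No listed, marker or neighbouring gene named as called changed direction under the alternatives that gave it an adjusted p, which were 10, 11 or 12 per gene. SFN, SNAP25, EPCAM, FGF17, FXYD7 and STEAP4 had no adjusted p with the DESeq2 Wald test, which therefore did not call them. The cause of these changes was not tested.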
